A study of Mus musculus with 20 samples.

Results

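The proteasome genes were taken as the protein-coding genes whose symbol is Psm followed by a letter from a to g and a number, according to RefSeq's genes for GRCm38.p6. The rule found 51 of 21631 protein-coding genes, counting the autosomes and the X chromosome. Of these, 49 encode subunits, regulators or assembly factors of the proteasome. The symbols Psmc3ip and Psme3ip1 match the rule but name partners of such proteins, the meiotic recombination factor HOP2 and a binding partner of the activator PA28γ. The data are peak lists of ATF4, a bZIP transcription factor of the integrated stress response, from CUT&Tag in C2C12, a mouse myoblast line of wild-type genotype. In CUT&Tag an antibody directs a transposase to a chromatin protein, and the DNA beside it is tagged and sequenced. The cells had 6 h of DMSO, the solvent, or of 100 nM thapsigargin, which blocks the calcium pump of the endoplasmic reticulum and so causes unfolded protein stress. The 2 ATF4 groups had 2 replicates each, but 1 list stands for each condition, with 803 peaks for DMSO and 8619 for thapsigargin. Peak positions give no expression values, so the identity of the cells was not checked against myoblast markers. The lists give no heights either, so the values below carry no replicate error and no test was possible between conditions. Read depth behind either list is unknown, and more peaks in 1 list cannot be told apart from deeper reads or a looser threshold.

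The proteasome is the protease of the cytosol and nucleus that degrades proteins tagged with ubiquitin. Its core is a barrel of alpha and beta rings with the active sites inside the beta rings. A regulatory cap, with a base of ATPases and a lid, binds ubiquitin chains, removes them and threads the substrate into the core. Dedicated chaperones assemble core and base and then leave, and other activators can take the place of the cap. Proteins removed from the endoplasmic reticulum under stress are degraded by this machine. In mammals the subunit genes are known to be raised together by NRF1 (Nfe2l1) when proteasome activity is low.

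In thapsigargin, 15 of the 51 proteasome genes (29.4%) carried an ATF4 peak whose centre was at most 1 kb from either end of the gene, called marked here, against 15.1% of all protein-coding genes. In DMSO 1 of 51 (1.96%) was marked, against 1.29% of all, and the same gene, Psmb2, was the only one marked in both lists, against 1.27% of all. The 15 were Psma2, Psma5, Psmb2, Psmb3, Psmb9, Psmc6, Psmd3, Psmd5, Psmd10, Psmd11, Psme2, Psme3, Psme3ip1, Psmg2 and Psmg4, each with a peak of its own. Assembly chaperone genes had the highest share among the groups of subunits and regulators (4 of 7), and the ATPases of the base the lowest (1 of 6). These groups are small and the difference between them was not tested. The median distance from a gene end to the nearest thapsigargin peak was 21.5 kb over the 51 genes and 49.7 kb over all protein-coding genes. For DMSO these medians were 515 kb and 844 kb. With the 803 widest thapsigargin peaks, as many as the DMSO list holds, 0 of the 51 genes were marked, against 1.32% of all.

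**Figure D1:**
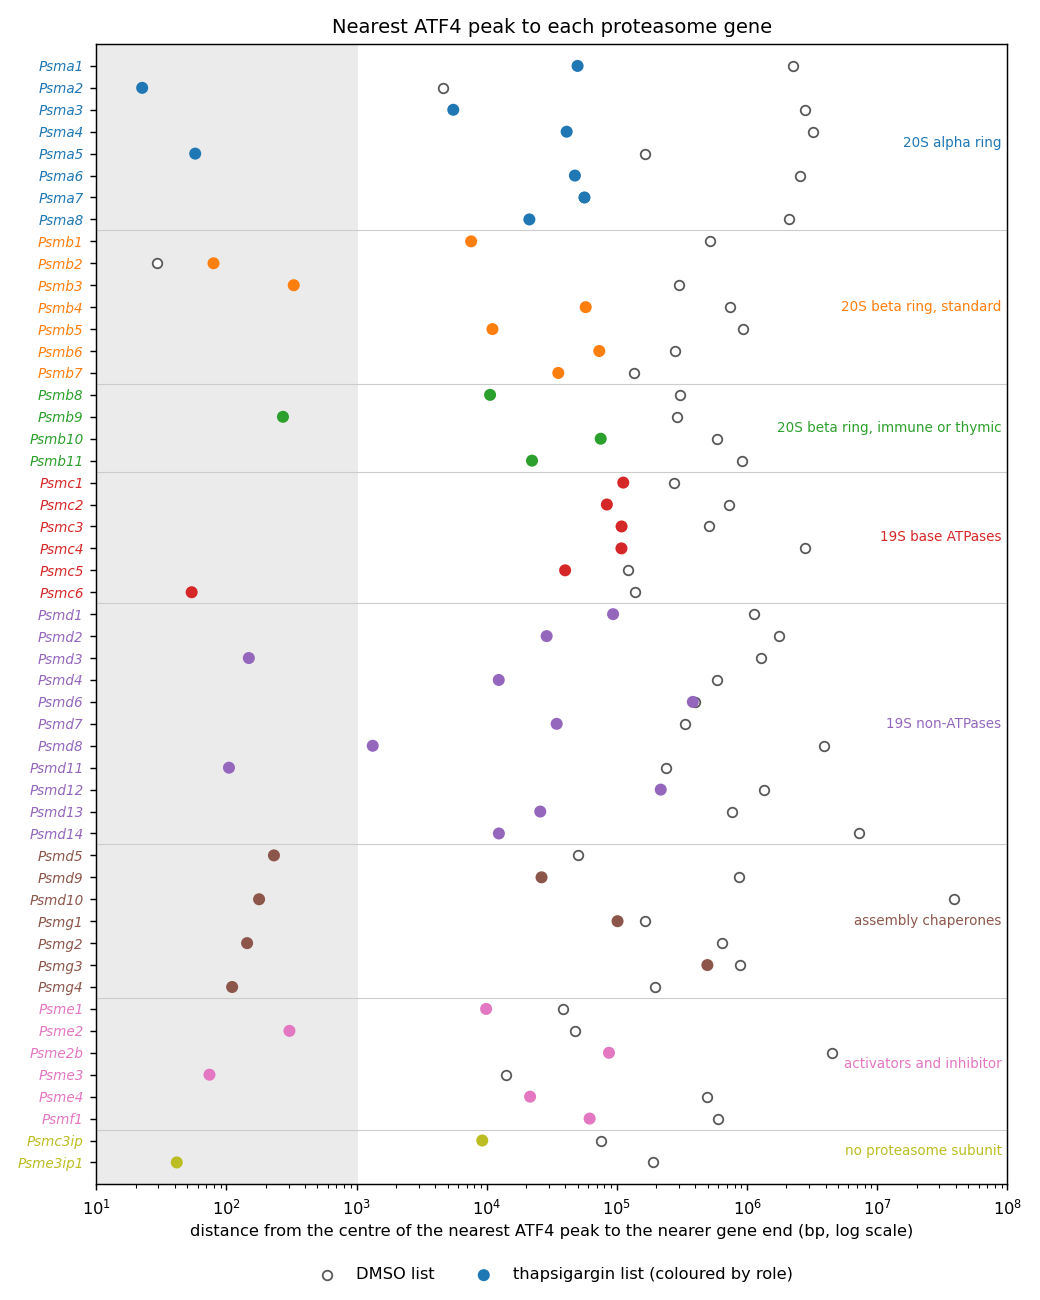
Distance (bp, log scale) from each of the 51 gene ends to the centre of the nearest ATF4 peak, for the DMSO list (open circles) and the thapsigargin list (filled circles, coloured by role), with the 1 kb window shaded. The 15 filled circles in the shaded window lie between 22.5 and 328.5 bp, and the next gene outward is Psmd8 at 1329 bp.

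The marked genes were not spread evenly around the 1 kb threshold. All 15 had the peak centre within 328.5 bp of the gene end. Over all marked protein-coding genes, 82.7% (2701 of 3267) had it within 500 bp. All 15 peaks of the proteasome genes covered the gene end, but this was not counted over all marked genes. The median distance was 110.5 bp for the proteasome genes and 228 bp for all marked genes. The genes closest to the threshold were Psme2 at 304.5 bp and Psmb3 at 328.5 bp inside it, and Psmd8 at 1329 bp and Psma3 at 5524 bp outside it. The peaks were 682 to 1570 bp wide with a median of 1068 bp, close to the 1036 bp of all marked genes. Their widths stood between the 15.0 and 88.3 percentiles of the thapsigargin list.

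A promoter table from RefSeq (GRCm38.p6) gave the start site of 43 of the 51 genes and was without Psma8, Psmb1, Psmb2, Psmb7, Psmc3, Psmd3, Psmd7 and Psmg2. Of the 15 marked genes 12 had a start site in it, and in all 12 the peak lay at the start rather than the far end of the gene. Among all marked genes with a start site, 93.4% (2518 of 2695) had a peak within 1 kb of it. The peak centre lay upstream of the start in 8 of the 12 and downstream in 4, a split that was not counted over all marked genes. By start site in place of gene end, 13 of 43 genes (30.2%) had a peak within 1 kb, against 16.4% of all genes in the table, because Psma3 was then included.

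**Figure D2:**
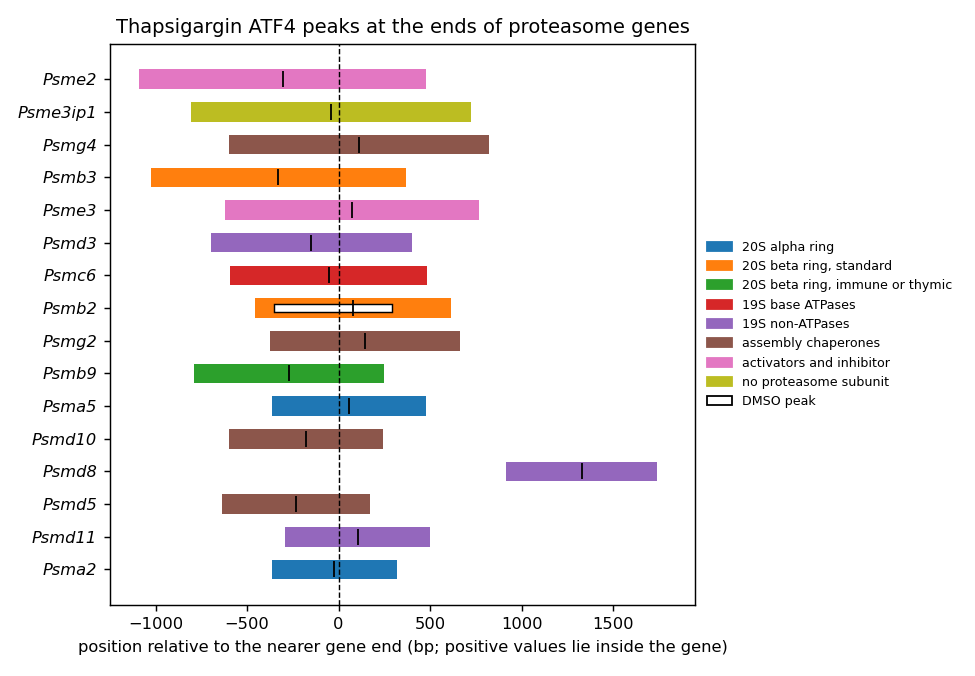
Extent of the thapsigargin ATF4 peak (bars, coloured by role, tick at the centre) relative to the nearer gene end (dashed line, bp, positive inside the gene) for the 15 marked genes and Psmd8. All 15 bars cross the gene end and that of Psmd8 lies inside the gene; the white bar is the DMSO peak of Psmb2, which lies within its thapsigargin peak.

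The 20S core, the barrel that cuts proteins, had 5 of 19 genes marked in thapsigargin (26.3%), against 15.1% of all protein-coding genes. Of the 8 alpha ring genes, whose products gate the entrance, Psma2 and Psma5 were marked. The Psma2 peak (chromosome 13, 14612879 to 14613560) was the narrowest of the 15 with 682 bp and was centred 22.5 bp from the start of the gene. Its centre was also 182.5 bp from the end of Mrpl32, a mitochondrial ribosomal protein gene. In DMSO the nearest peak to Psma2 lay 4.57 kb away, 1 bp from an end of AW209491, and this was the only DMSO peak besides that of Psmb2 within 10 kb of a proteasome gene. The Psma5 peak (chromosome 3, 108256562 to 108257405, 844 bp) was centred 57.5 bp inside the gene, and the nearest DMSO peak was 164 kb away.

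Psma3 had a thapsigargin peak inside the gene, 5524 bp from the lower end of the gene in the table but 184 bp downstream of its start site in the promoter table. That peak (chromosome 12, 70974643 to 70974971) was 329 bp wide, at the 0.4 percentile of widths in the list. The remaining alpha genes had no thapsigargin peak within 10 kb. The nearest was 49.8 kb away at Psma1, 41.1 kb at Psma4, 47.5 kb at Psma6, 56.2 kb at Psma7 and 21.2 kb at Psma8, the alpha subunit gene of testis.

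Of the 7 standard beta ring genes Psmb2 and Psmb3 were marked. Both encode structural beta subunits without an active site. Psmb2 lies on chromosome 4, from 126677637 to 126709715. Its DMSO peak ran from 126677286 to 126677930, a width of 645 bp, and was centred 29 bp from the gene end. The thapsigargin peak ran from 126677183 to 126678250, was 1068 bp wide, 1.66 times the DMSO width, and contained the whole DMSO peak. No other protein-coding gene had an end within 10 kb of either peak's centre. Width is not a measure of occupancy. The Psmb3 peak in thapsigargin (chromosome 11, 97702407 to 97703804, 1398 bp) was centred 328.5 bp upstream of the start, with an end of Pcgf2, a Polycomb gene, 671.5 bp from the centre and an end of an asparagine tRNA gene 583.5 bp from it.

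The genes of the standard catalytic beta subunits, Psmb5, Psmb6 and Psmb7, were not marked in either list. The nearest thapsigargin peak was 11.1 kb from Psmb5, which encodes the chymotrypsin-like site targeted by bortezomib, 73.1 kb from Psmb6 and 35.4 kb from Psmb7. Psmb4 was 57.5 kb away from its nearest peak, and Psmb1 had a peak of 772 bp inside the gene, 7.58 kb from the nearer end. Of the 4 genes of immune or thymic beta subunits, which replace the catalytic ones in antigen-presenting or thymic cells, Psmb9 was marked. Its peak (chromosome 17, 34187084 to 34188119, 1036 bp) lay between Psmb9 and Tap1, the gene of the antigen peptide transporter, with the centre 271.5 bp from Psmb9 and 45.5 bp from Tap1. The same peak was the nearest one to Psmb8, 10.6 kb away. Psmb10 and the thymic Psmb11 had none within 20 kb, with 75.0 kb and 22.2 kb.

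The 19S cap had 3 of 17 genes marked in thapsigargin (17.6%), near the 15.1% of all genes, and none in DMSO. Of the 6 base ATPases, which unfold substrates, Psmc6 was marked by a peak of 1077 bp (chromosome 14, 45329231 to 45330307) centred 54 bp from the gene end. For Psmc1 to Psmc5 the nearest thapsigargin peak was 112, 83.6, 108, 108 and 39.9 kb away in that order. Of the 11 other cap genes, Psmd3 and Psmd11 were marked, both on chromosome 11 and both encoding scaffold subunits of the lid. The Psmd3 peak (98681857 to 98682954, 1098 bp) was centred 148.5 bp outside the gene and the Psmd11 peak (80428325 to 80429114, 790 bp) 104.5 bp inside it.

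Psmd8, another lid gene, missed the window with a peak of 825 bp inside the gene, centred 1329 bp from its start and with no base on the start itself. Psmd14 encodes the deubiquitinase of the lid and had a peak of 1057 bp inside the gene, 12.4 kb downstream of its start. The gene of the ubiquitin receptor Psmd4 had its nearest peak at 12.4 kb outside the gene. The large scaffold subunit genes Psmd1 and Psmd2 were 93.3 kb and 28.8 kb from a peak. Psmd6, Psmd7, Psmd12 and Psmd13 were 383, 34.4, 217 and 25.7 kb away in that order.

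Assembly chaperone genes were marked at 4 of 7 (57.1%) in thapsigargin and at 0 of 7 in DMSO. The shares of all protein-coding genes were 15.1% and 1.29%. Psmg2 and Psmg4 belong to the pairs PAC1-PAC2 and PAC3-PAC4, which build the alpha ring. The Psmg2 peak was 1037 bp wide and centred 144 bp inside the gene, with an end of the centrosomal gene Cep76 376 bp from the centre. The Psmg4 peak (chromosome 13, 34162364 to 34163785) was 1422 bp wide and centred 110.5 bp inside the gene. The partners of these pairs, Psmg1 and Psmg3, had their nearest peak 101 kb and 495 kb away, so in each pair 1 gene was marked.

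Psmd5 and Psmd10 encode chaperones of the ATPase base, S5b and gankyrin. The Psmd5 peak (chromosome 2, 34870791 to 34871602, 812 bp) was centred 231.5 bp outside the gene. The Psmd10 peak (chromosome X, 140956468 to 140957310, 843 bp) was centred 178 bp outside it. The base chaperone gene Psmd9 had none within 20 kb (26.3 kb). All 4 marked chaperone genes lacked a DMSO peak within 10 kb, the closest being 49.9 kb from Psmd5. Most genes lacked one, since only 2.72% of all protein-coding genes had a DMSO peak within 10 kb of an end.

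Among the 6 genes of other activators and of the inhibitor, Psme2 and Psme3 were marked in thapsigargin. Psme2 encodes the beta subunit of PA28, an activator induced by interferon. Its peak (chromosome 14, 55590621 to 55592190) was the widest of the 15 with 1570 bp and lay between Psme2 and Rnf31, a gene of the linear ubiquitin ligase, 304.5 bp and 307.5 bp from the centre. The same peak was nearest to Psme1, the gene of the alpha subunit, 9.88 kb away. Psme3 encodes PA28γ, the nuclear activator, and had a peak of 1391 bp (chromosome 11, 101315592 to 101316982) centred 74 bp inside the gene, while the nearest DMSO peak lay 14.1 kb away. Psme2b, Psme4 and Psmf1, the gene of the inhibitor PI31, had their nearest thapsigargin peak 86.8, 21.5 and 61.7 kb away. Of the symbols that encode no subunit, Psme3ip1 was marked by a peak of 1530 bp centred 62.5 bp from Rspry1 and 41.5 bp from its own end. The peak nearest to Psmc3ip was 9.22 kb away and closer to Coasy, at 354 bp.

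**Figure D3:**
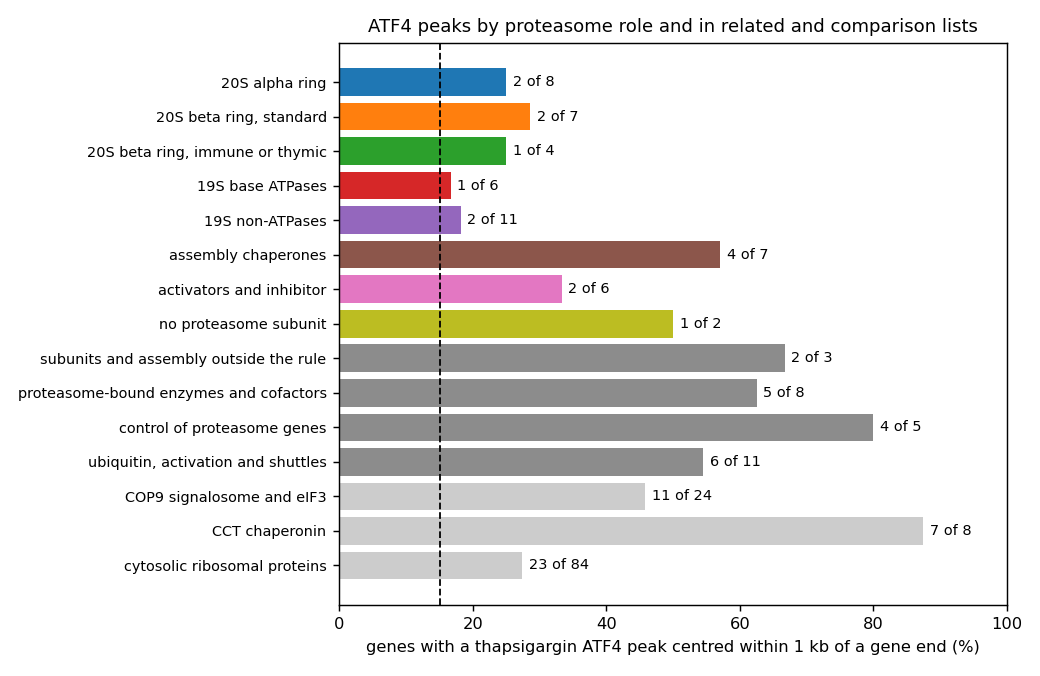
Share (%) of genes marked in thapsigargin (peak centre at most 1 kb from either end), by role among the proteasome genes (coloured), in lists of related genes (dark grey) and in comparison lists (light grey), with counts beside each bar and the 15.1% of all protein-coding genes as a dashed line. The assembly chaperones stand at 4 of 7 and the base ATPases at 1 of 6.

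Beyond the gene ends, 20 of the 51 genes (39.2%) had a thapsigargin peak centred within 10 kb, against 26.3% of all protein-coding genes. These were the 15 marked genes and Psmd8, Psma3, Psmb1, Psmc3ip and Psme1. With peaks centred inside a gene counted as well, Psmd14 was added, giving 21 of 51 (41.2%), against 30.5% of all. In DMSO 2 of 51 genes (3.92%) had a peak centred within 10 kb of an end, against 2.72% of all. A thapsigargin peak was centred inside 10 of 51 genes (19.6%), against 17.8% of all, and a DMSO peak inside 0 of 51, against 2.02% of all. Of the 10 inside peaks, 6 belonged to marked genes, and the others were those of Psmd14, Psmd8, Psma3 and Psmb1. A longer gene gives more sequence in which a peak can be centred. The median length was 13.4 kb for the marked proteasome genes, 9.34 kb for the others and 17.3 kb for all protein-coding genes.

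Many proteasome genes sit close to a neighbour. Of the 51, 21 (41.2%) had an end within 1 kb of another protein-coding gene's end, against 25.1% of all genes. Such genes were marked more often throughout the genome, with 26.3% against 11.3% of those without such a neighbour. Of the 21 proteasome genes with one, 8 were marked (38.1%), and of the 30 without one 7 (23.3%). At 6 of the 15 marked genes a neighbour's end lay within 1 kb of the peak centre, namely at Psma2, Psmb3, Psmb9, Psme2, Psme3ip1 and Psmg2. Which gene such a peak serves cannot be told from the lists.

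Windows of 300 bases around the start sites, 250 before and 50 after, were searched for 7 motifs on both strands. The table held 47 windows of proteasome genes and 21045 of all protein-coding genes, and 13 of the 47, from 12 genes, had the start site under a thapsigargin peak. ATF4 with a C/EBP partner is known to bind the C/EBP-ATF composite element, searched as TGATGNAA. This was found in 1 of 47 windows (2.13%), that of Psmd13, against 3.45% of all windows. It was in 0 of the 13 windows under a peak, against 4.05% of all windows under one. The cyclic AMP response element TGACGTCA was in 0 of 47, against 2.26% of all windows and 5.23% of those under a peak. Its shorter form TGACGT, which every TGACGTCA also holds, was in 4 of 47 (8.51%) against 8.58% of all. Under a peak it was in 1 of 13 (7.69%), that of Psma5, against 501 of 2791 (18%) of all windows under one.

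The C/EBP-like motif TTGCNNAA was found in 5 of 47 windows (10.6%), against 10.3% of all, and in 2 of 13 under a peak, those of Psmb3 and Psme3ip1, against 212 of 2791 (7.6%) of all windows under one. The antioxidant response element core TGACNNNGC, which NRF1 and NRF2 bind with small MAF proteins, was in 6 of 47 (12.8%), against 2731 of 21045 (13%). These were the windows of Psmb5, Psmb6, Psmc6, Psmd9, Psmd12 and Psme4. That of Psmc6 was under a peak, 1 of 13 (7.69%) against 475 of 2791 (17%) of all windows under one. The NF-Y box CCAAT was in 16 of 47 (34.0%), against 38.5% of all, and in 6 of 13 under a peak (46.2%), against 45.3%. The ER stress element was in none of the 47 and in 0.143% of all windows. Matches are descriptions of letters, and the windows take in less than the whole of the peaks, which reached 1570 bp. The median G and C content was 57.3% in the proteasome gene windows and 56.7% in all coding windows. Under a peak it was 59.7% in the proteasome gene windows and 62.3% in all coding windows. Proteasome gene windows not under a peak had 54.8%.

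**Figure D4:**
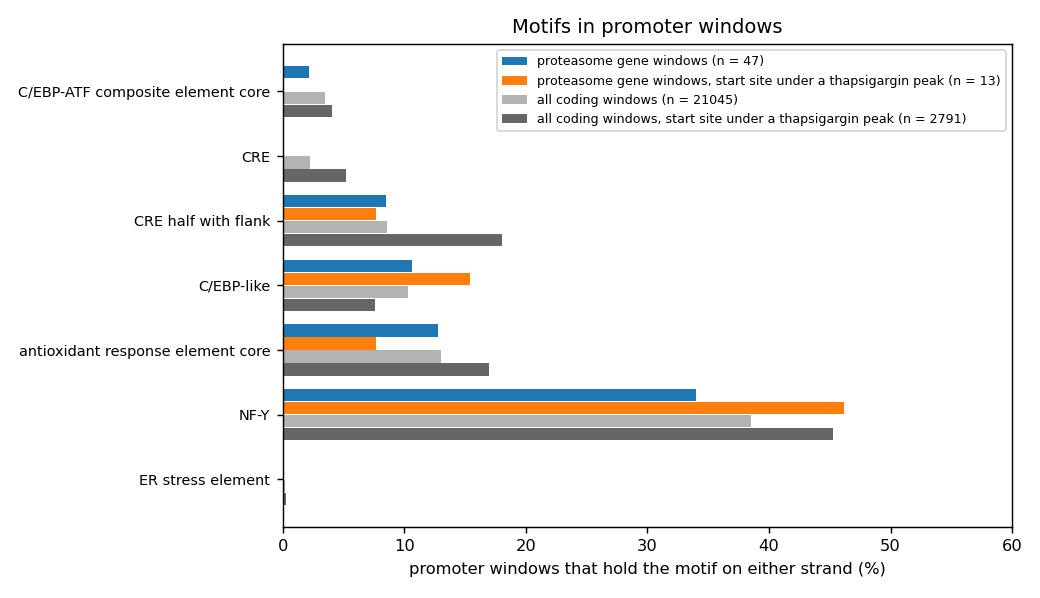
Share (%) of promoter windows that hold each of the 7 motifs on either strand, for windows of proteasome genes, those with the start site under a thapsigargin peak, and the same over all protein-coding genes, with n of each set in the legend. The C/EBP-ATF composite element was found in 0 of 13 windows of proteasome genes under a peak.

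The promoters of 3 marked subunit genes are shown because they held a bZIP-type motif under the thapsigargin peak. Psme3ip1, which encodes no subunit, held one as well. Capitals mark every match to the 7 motifs, read on either strand. Each window is written 5′ to 3′ on the gene's own strand and is from GRCm38.p6. In Psma5 (chr3:108256676-108256975, plus strand) the capitals are TGACGT read on the opposite strand, at bases 201 to 206 of the window and 105 bp from the peak centre. In Psmb3 (chr11:97703184-97703483, plus strand) they are the NF-Y boxes and, at bases 221 to 228, TTGCNNAA read on the opposite strand, 302 bp from the peak centre. In Psmc6 (chr14:45329574-45329873, plus strand) they are TGACNNNGC read on the opposite strand, at bases 24 to 32 and 168 bp from the peak centre.

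Psma5: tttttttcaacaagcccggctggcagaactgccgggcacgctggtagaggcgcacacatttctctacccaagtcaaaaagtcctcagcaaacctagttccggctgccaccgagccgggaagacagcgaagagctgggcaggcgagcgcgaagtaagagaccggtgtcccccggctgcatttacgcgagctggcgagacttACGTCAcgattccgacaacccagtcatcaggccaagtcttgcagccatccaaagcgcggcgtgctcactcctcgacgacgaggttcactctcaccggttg

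Psmb3: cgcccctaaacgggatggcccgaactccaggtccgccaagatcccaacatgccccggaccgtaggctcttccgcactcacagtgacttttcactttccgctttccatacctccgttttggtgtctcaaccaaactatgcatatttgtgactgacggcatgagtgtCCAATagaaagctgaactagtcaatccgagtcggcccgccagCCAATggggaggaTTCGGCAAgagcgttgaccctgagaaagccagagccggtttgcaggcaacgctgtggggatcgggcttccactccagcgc

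Psmc6: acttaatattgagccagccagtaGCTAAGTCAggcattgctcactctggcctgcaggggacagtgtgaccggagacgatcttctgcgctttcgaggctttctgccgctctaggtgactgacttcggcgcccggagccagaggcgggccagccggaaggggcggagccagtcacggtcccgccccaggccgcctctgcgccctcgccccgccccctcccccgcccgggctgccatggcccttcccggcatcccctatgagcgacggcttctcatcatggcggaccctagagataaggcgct

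The promoters of the marked assembly chaperone genes with a start site in the table follow, since this group had the highest share of marked genes. Those of the unmarked Psmd9, Psmg1 and Psmg3 are not shown. Psmd9 held TGACNNNGC at bases 220 to 228, and Psmg1 and Psmg3 held none of the 7 motifs. Psmd5 (chr2:34870913-34871212, minus strand) and Psmg4 (chr13:34162714-34163013, plus strand) held none of the 7 motifs. Psmd10 (chrX:140956662-140956961, minus strand) held 3 NF-Y boxes and no other motif.

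Psmd5: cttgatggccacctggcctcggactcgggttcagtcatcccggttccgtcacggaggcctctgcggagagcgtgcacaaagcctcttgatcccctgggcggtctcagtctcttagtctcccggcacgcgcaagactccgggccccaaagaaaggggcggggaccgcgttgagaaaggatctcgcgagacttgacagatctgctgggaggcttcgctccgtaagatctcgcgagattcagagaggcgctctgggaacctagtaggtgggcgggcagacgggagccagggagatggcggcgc

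Psmd10: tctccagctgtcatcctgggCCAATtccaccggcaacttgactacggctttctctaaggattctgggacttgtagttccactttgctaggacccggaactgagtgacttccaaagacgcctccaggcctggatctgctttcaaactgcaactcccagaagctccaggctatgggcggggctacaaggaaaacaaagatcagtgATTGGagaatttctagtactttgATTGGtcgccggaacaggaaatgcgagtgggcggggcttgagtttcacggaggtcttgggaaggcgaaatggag

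Psmg4: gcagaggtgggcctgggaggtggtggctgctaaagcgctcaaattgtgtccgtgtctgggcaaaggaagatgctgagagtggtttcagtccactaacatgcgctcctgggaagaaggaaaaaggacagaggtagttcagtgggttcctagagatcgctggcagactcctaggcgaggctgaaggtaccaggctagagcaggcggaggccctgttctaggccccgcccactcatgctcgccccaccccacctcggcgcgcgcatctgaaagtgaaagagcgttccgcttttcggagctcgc

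For contrast, Psmd13 (chr7:140882144-140882443, plus strand) held the C/EBP-ATF composite element, read on the opposite strand at bases 4 to 11, and had its nearest thapsigargin peak 25.7 kb away. Psmb5 (chr14:54617946-54618245, minus strand) held TGACGT and TGACNNNGC over the same bases from position 204, and TTGCNNAA at bases 246 to 253, with its nearest peak 11.1 kb away. Neither promoter was under a peak of either list.

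Psmd13: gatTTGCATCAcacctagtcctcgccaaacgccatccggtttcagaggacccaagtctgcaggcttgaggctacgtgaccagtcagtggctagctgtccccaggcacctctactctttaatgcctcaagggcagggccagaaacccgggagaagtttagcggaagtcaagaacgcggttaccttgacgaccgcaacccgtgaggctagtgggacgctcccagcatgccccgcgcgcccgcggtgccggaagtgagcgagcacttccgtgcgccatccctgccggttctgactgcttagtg

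Psmb5: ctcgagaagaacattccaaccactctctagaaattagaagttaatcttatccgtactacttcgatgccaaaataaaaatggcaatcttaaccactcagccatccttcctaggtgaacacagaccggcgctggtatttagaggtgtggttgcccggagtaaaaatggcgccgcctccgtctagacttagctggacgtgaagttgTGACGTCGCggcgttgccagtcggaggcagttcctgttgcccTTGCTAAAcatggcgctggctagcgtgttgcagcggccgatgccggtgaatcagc

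Genes that work with the proteasome but carry other symbols were marked at 17 of 27 (63.0%) in thapsigargin and at 1 of 27 in DMSO. Over all protein-coding genes the shares were 15.1% and 1.29%. The list of related genes was drawn up from known partners with results of these data already known, so its share is no survey. Of the subunit and assembly genes outside the symbol rule, Adrm1, a ubiquitin receptor of the cap, had a peak of 1047 bp centred 1 bp from the gene end, and Sem1, a lid subunit, one of 988 bp at 9.5 bp. Pomp, the chaperone of the beta ring, had its nearest peak 467 kb away. Of the enzymes and cofactors that bind the proteasome, the deubiquitinase gene Usp14 (466.5 bp), the ligase gene Ube3c (384.5 bp), Txnl1 (8 bp), Zfand5 (394.5 bp) and Akirin2 (637 bp) were marked, with the distance of the peak centre from the gene end given for each.

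Of the 5 genes that control proteasome genes, 4 were marked in thapsigargin, against 15.1% of all protein-coding genes. Nfe2l1, the gene of NRF1, was marked in both lists, with the peak centre 367 bp from the gene end in DMSO and 92.5 bp in thapsigargin. The others were Nfe2l2, the gene of NRF2 (383 bp), Ngly1, the gene of the glycanase that acts on NRF1 (269 bp), and Vcp, the gene of the ATPase that extracts proteins from the ER membrane (239.5 bp). Ddi2, the gene of the protease that cuts NRF1, had its nearest peak 18.7 kb away. Of the ubiquitin, activation and shuttle genes 6 of 11 were marked in thapsigargin, against the same 15.1%. Among them were the ubiquitin genes Ubb and Rps27a and the shuttle factor genes Ubqln1 and Ubqln4, and the Ubb peak was 2061 bp wide. The ubiquitin-activating enzyme genes Uba1 and Uba6 had their nearest peak 77.8 kb and 44.8 kb away.

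Other large complexes were counted in the same way, without a test, beside 15.1% of all protein-coding genes marked in thapsigargin and 1.29% in DMSO. Of the 84 genes with ribosomal protein symbols, 23 (27.4%) were marked in thapsigargin and 1 in DMSO. The 23 include Rps27a, which is also counted above among the ubiquitin genes. The COP9 signalosome and eIF3, which are built like the lid of the cap, had 11 of 24 (45.8%) and 1 of 24. The CCT chaperonin, which folds actin and tubulin, had 7 of 8 (87.5%) and 1 of 8. The proteasome genes, with 29.4% and 1 of 51, had a share near that of the ribosomal protein genes.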

How the data were processed

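CUT&Tag of ATF4 in DMSO and thapsigargin was used, 2 of 10 groups, and the other 8 were not analysed here. The authors deposited 1 list of peak positions (chromosome, start, end) per condition, with no other values. Per the submitters' processing notes, which list names without saying what each did, the build was mm10 and the tools were MACS2 2.2.7.1, Bowtie2 and Trim Galore 0.6.10. Not given in the sources used here are the peak threshold, any control library and how replicates were combined. Read depth is unknown. Nothing in the labels says whether replicates came from separate cultures.

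Distances ran between a peak's centre and whichever gene end was nearer, in a RefSeq table of GRCm38.p6, to which mm10 corresponds. That table has no strand, so start sites came from a RefSeq promoter table. A gene counted as marked with a centre within 1 kb of an end. Printed coordinates count from 1. No test was run, since each condition has 1 list and genes are not replicates. Shares of all protein-coding genes include the proteasome genes.

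The members and lists were chosen with earlier results of these data known. All genes with a peak within 10 kb or inside were to be described, and of related genes those marked, some of which are not reported by name here. Paaf1 was listed but not matched. Alternatives were other windows, any base of the peak, start sites, the nearest gene end only, genes left out, and fewer peaks by width. Python 3.11.15, numpy 2.4.6, pandas 2.3.3 and matplotlib 3.10.9 were used, and the distance and motif functions were tested on simulated data.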

Additional observations from a re-analysis of the deposited data

How the results depend on the processing

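No paired analysis was possible because the files hold 1 list, without replicate values, for either condition, and no replicate could be left out for the same reason. Of 38 alternative counts, 29 were within 1.5 times of the main count. The count of 15 marked genes in thapsigargin was 15 with a window of 500 bp, against 12.5% of all genes. It was 16 (31.4%), with Psmd8 added, at 3 kb, at 5 kb and with any base of the peak within 1 kb, while the share of all genes was 18.6%, 21.1% and 16.2% in that order, so the difference from all genes was smaller at 5 kb than at 1 kb. It was 14 with the nearest gene end only, where Psmb9 was lost to Tap1, against 12.6% of all genes, and 14 of 49 without Psmc3ip and Psme3ip1, against 15.1%. It was 7 of 30 without genes whose end adjoins another coding gene's end, against 11.3% of all such genes, 9 of 51 with the peaks ranked by width down to the median of their list, against 7.56% of all genes, and 0 with the 803 widest thapsigargin peaks, against 1.32% of all genes, settings that leave fewer genes or peaks by construction. The 803 widest were at least 1635 bp wide, and no marked proteasome gene had a peak above 1570 bp. The count of 1 in DMSO and of 1 in both lists was 2 for both with a window of 5 kb, where Psma2 was added although its peaks in the 2 lists are different sites. It was 0 for both by start site, since Psmb2 has none in the table, and 0 for both with the peaks ranked by width down to the median of their list. With 5 kb or 20 kb in place of 10 kb, 19 or 24 genes in place of 21 had a thapsigargin peak nearby or inside, against 26.8% or 37.2% of all genes in place of 30.5%. The motif counts stayed within 1.5 times when matches overlapping another motif were left out. For TGACGTCA and the ER stress element this setting says nothing, although both are among the 29. Every such match holds TGACGT or CCAAT and is dropped, so the counts over all windows fell from 475 and 30 to 0. The proteasome gene windows held 0 of either motif from the start. The unknown depth of the lists limits any reading of absent peaks.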
